A study of Homo sapiens with 12 samples.

Results

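Serum starvation was compared with log phase in the polysome fraction of HEK293 cells, an established human embryonic kidney line, by ribosome profiling, which sequences the mRNA fragments that ribosomes shield from nuclease. The comparison used 4 of the 12 libraries of the series: 2 polysome libraries, A and B, from cells kept 2 h without fetal bovine serum, and 2, A and B, from cells in log phase in DMEM with serum. The other 8 libraries were polysomes of cells kept 1 h without amino acids, in a salt solution with vitamins and serum, and monosomes of all 3 conditions, also with 2 libraries a group. Serum withdrawal took away the growth factors and lipids of serum and left the amino acids of the medium in place. All cells were of 1 line, and cycloheximide, which arrests elongating ribosomes, was in the lysis buffer of every group. The p-values here measure the spread left between libraries once a difference between A and B shared by the conditions is taken out. The labels do not say whether A and B came from separate cultures, so that spread may be technical.

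Serum feeds growth factor receptors that signal through RAS and ERK to the immediate early transcription factors, and through PI3K, AKT and mTORC1 to the translation machinery. When AKT is inactive, FOXO factors enter the nucleus and switch on growth arrest genes. When mTORC1 is inactive, LARP1 and the 4E-BPs hold back mRNAs that begin with a 5' terminal oligopyrimidine (5'TOP) tract, which include nearly all mRNAs for cytosolic ribosomal proteins. Polysomes hold mRNAs carrying several ribosomes, so a gene's polysome footprints follow the amount of its mRNA and the ribosomes on it together, and these cannot be told apart here.

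The footprints that fell on coding ORFs numbered 3969458 and 3384391 in serum starvation A and B, against 5313462 and 2039730 in log phase A and B. They were 63.7% and 60.4% of the footprints on all kept ORFs in serum starvation, against 69.2% and 56.9% in log phase. A and B libraries stood apart within each condition: the median gene differed between log phase B and A by 0.89 on the log2 scale. That B-minus-A deviation correlated between serum starvation and log phase polysomes (r = 0.83 over 5323 genes), and the letter was therefore kept in the fit as a block. Of 8 markers listed for HEK293 cells, 4 had a coding ORF in the table, and they summed to 2419 and 6471 footprints in serum starvation, against 2223 and 3109 in log phase, nearly all from the neurofilament gene NEFM and the vimentin gene VIM. Of 14 markers of liver, blood, fibroblast and other cell types, 2 had a coding ORF (HBA1 and COL1A1), and their sum was 4 and 11 footprints in serum starvation, against 10 and 12 in log phase.

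Few genes differed between serum starvation and log phase polysomes beyond the spread left between libraries after the letter block. PNRC1, which encodes a nuclear receptor coregulator, was called higher in serum starvation, and no gene was called lower. Of 5323 genes tested with edgeR's quasi-likelihood test, 1 was higher at an adjusted p under 0.05 (0.0188%) and 0 were lower (0%). At an unadjusted p under 0.05, 89 genes were higher (1.67%) and 86 were lower (1.62%). DESeq2 called 2 genes, PNRC1 and ID3, and limma-voom called 0. The median size of the change was 0.20 on the log2 scale and the median half-width of its 95% interval was 0.59. That interval lay within a log2 change of 1 in either direction for 3436 genes (64.55%). In amino acid starvation, which was set against the same log phase libraries, 641 genes were higher (12%) and 677 were lower (12.7%), with a median size of 0.51.

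The A pair and the B pair of libraries, each a serum starvation library over the log phase library of the same letter, were also read separately. Both pairs pointed up for 1316 genes (24.7%), both pointed down for 1349 (25.3%), and the pairs went opposite ways for 2658 (49.93%). Across the 5323 genes the changes of the A and B pairs, which share no library, correlated at r = -0.01 and rho = 0.01, a description across genes that are not independent replicates. The groups did not overlap for 217 genes that were higher in serum starvation (4.08%) and 221 that were lower (4.15%). Many genes named below were picked partly because their groups did not overlap, so that trait is no separate result for them.

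**Figure D1:**
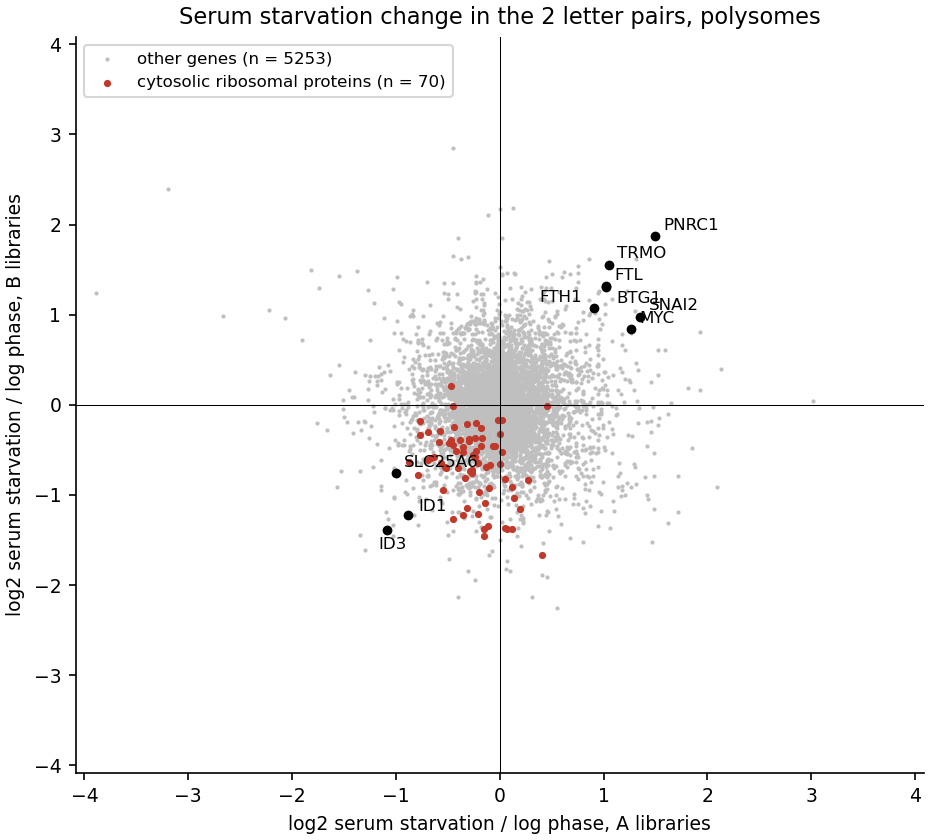
Log2 ratio of serum starvation to log phase polysome footprints in the A libraries (x axis) and the B libraries (y axis) for 5323 genes, with 70 cytosolic ribosomal protein genes in red and 10 named genes in black. The cloud has no slope, the ribosomal protein genes lie mostly below and left of 0, and PNRC1 is high in both pairs.

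Values below are footprints in CPM, that is, per 1000000 coding footprints of a library after TMM scaling, which sets libraries on a common scale from the bulk of the genes. PNRC1 had 40.70 and 42.93 in serum starvation A and B, against 14.02 and 11.28 in log phase A and B. Its serum starvation libraries agreed closely, and both were more than any other polysome library held, amino acid starvation included (23.24 and 25.08). These values rested on 131 and 166 footprints in serum starvation, against 58 and 25 in log phase. The log2 change was 1.71 (SE 0.32, edgeR adjusted p = 0.0327). In monosomes, which were tested separately, the log2 change of PNRC1 was 1.44 (SE 0.55, edgeR adjusted p = 0.208). The polysome call was lost when any 1 of the 4 libraries was left out, at adjusted p of 0.0576 to 0.9998, and without the letter as a block (0.9999), while the log2 change stayed between 1.53 and 1.94 over the alternatives.

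Both ferritin genes, which encode the iron storage protein, were higher in serum starvation libraries than in the log phase library of the same letter, although neither passed the test. FTL, the ferritin light chain, had 55.30 and 86.39 in serum starvation, against 26.84 and 34.28 in log phase, for a log2 change of 1.19 (SE 0.28, edgeR adjusted p = 0.239). FTH1, the heavy chain, which was chosen after its values were seen, had 41.32 and 111.5 in serum starvation, against 21.76 and 52.77 in log phase, for a log2 change of 1.01 (SE 0.28, edgeR adjusted p = 0.676). FTL did not overlap between the groups, whereas the serum starvation A value of FTH1 was below its log phase B value. Both chains form the shell that stores iron, and both mRNAs carry an iron-responsive element, a hairpin in the 5' leader that iron regulatory proteins bind when iron is scarce. In amino acid starvation FTL had 13.71 and 20.00, and it was higher in serum starvation than there by 2.06 on the log2 scale (edgeR adjusted p = 4.74e-05). FTH1 was higher in serum starvation than in amino acid starvation by 1.74 (edgeR adjusted p = 0.00042). These are 2 of the 404 genes (7.59%) that were higher in serum starvation than in amino acid starvation polysomes, against 353 (6.63%) that were lower, and the starvation times differed.

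The FTL leader is shown because the loop of the iron-responsive element can be read in it. The stretch covers bases 21 to 50 after the annotated start in the RefSeq promoter table (GRCh38.p14, chr19:48965329-48965358, plus strand), and the capitals mark the letters CAGTGN of the loop.
FTL: gtctgtctcttgcttcaaCAGTGTttggac
The motif CAGTGN, searched on the mRNA strand in the first 50 bases, was present in 6.32% of the 27305 promoter entries, so the letters alone are not rare. FTH1 was not among the entries.

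In the list of immediate early and ID genes, MYC, BTG1, KLF4 and JUN lay above log phase, and ID3 and ID1 below it. Of 41 genes listed, 16 had a coding ORF and 15 were tested; at an unadjusted p 6 of them were higher and 2 were lower, beside 1.67% and 1.62% of all genes tested. None passed after adjustment, and the median was 0.29 against -0.01 for all genes tested. Both pairs pointed up for 8 and down for 2, beside 24.7% and 25.3% of all genes. MYC, the transcription factor that drives growth and the cell cycle, had 1359 and 2044 in serum starvation, against 564.3 and 1141 in log phase, for a log2 change of 1.06 (SE 0.32, edgeR adjusted p = 0.871). Each serum starvation value of MYC was above both log phase values. BTG1, an antiproliferative partner of the CCR4-NOT deadenylase, had 133.0 and 63.63 in serum starvation, against 65.28 and 25.26 in log phase, for a log2 change of 1.15 (SE 0.28, edgeR adjusted p = 0.252). KLF4, a zinc finger transcription factor, had 281.8 and 279.1 in serum starvation, against 139.7 and 217.0 in log phase (log2 change 0.69). JUN, a subunit of the AP-1 factor, had 46.29 and 107.3 in serum starvation, against 27.56 and 59.09 in log phase (log2 change 0.80). BTG1 and JUN overlapped between the groups, and KLF4 did not. The change of KLF4 was 0.43 without serum starvation A and 0.46 without log phase A.

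ID3 and ID1 encode helix-loop-helix proteins that bind and inactivate E-box transcription factors, and they are classic targets of BMP signals and of serum. ID3 had 199.4 and 97.77 in serum starvation, against 423.8 and 257.6 in log phase. Both serum starvation values were below both log phase values, the log2 change was -1.23 (SE 0.27), and the edgeR adjusted p was 0.202, whereas DESeq2 gave an adjusted p of 0.0263. ID1, with far fewer footprints, had 4.66 and 9.83 in serum starvation, against 9.19 and 23.91 in log phase (log2 change -1.13, SE 0.40, edgeR adjusted p = 0.9996). ID3 had 324.2 and 256.9 in amino acid starvation and was lower in serum starvation than there by a log2 change of -1.05 (edgeR adjusted p = 0.00972). JUN was also lower in serum starvation than in amino acid starvation (-1.34, edgeR adjusted p = 0.00179). ID4, of the same family and chosen after its values were seen, lay the other way, with 323.7 and 288.1 in serum starvation, against 162.5 and 254.4 in log phase (log2 change 0.61, SE 0.28, edgeR adjusted p = 0.9996). No coding ORF was listed under the names EGR1, FOS or DUSP6. SNAI2, a repressor of epithelial genes that was chosen after its values were seen, had 490.5 and 143.8 in serum starvation, against 191.7 and 72.62 in log phase (log2 change 1.19, SE 0.28, edgeR adjusted p = 0.239).

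**Figure D2:**
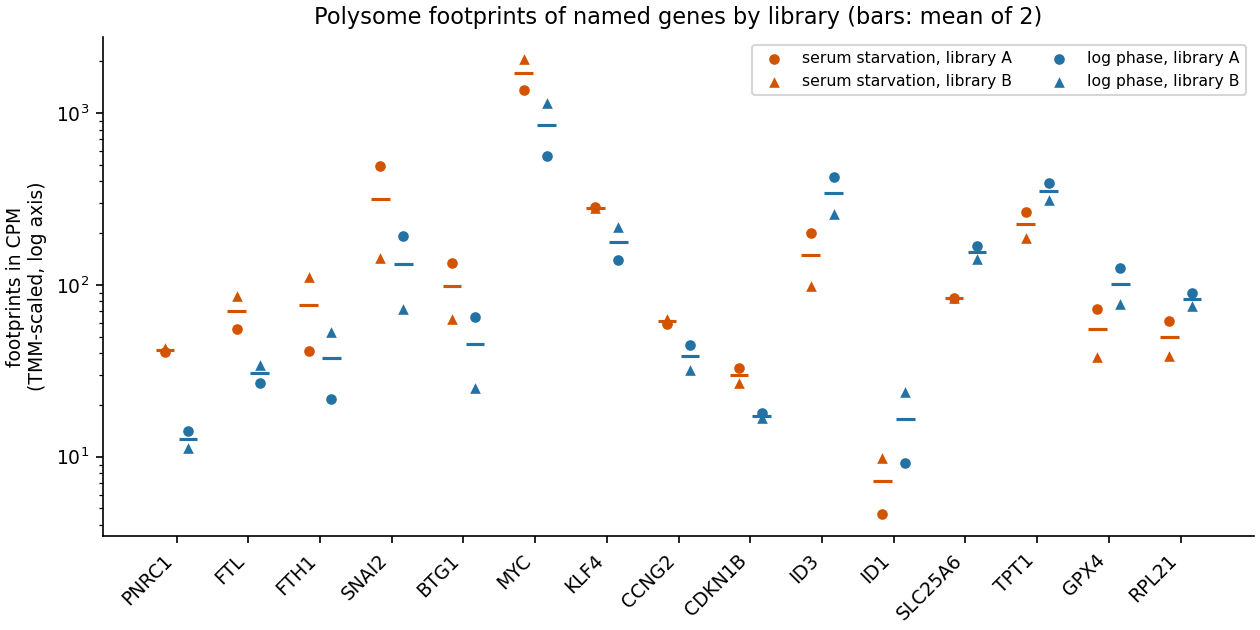
TMM-scaled polysome footprints in CPM (log axis) of 15 genes, with serum starvation in orange on the left and log phase in blue on the right of each gene, circles for A libraries, triangles for B libraries and a bar at the mean of 2. PNRC1, FTL, MYC, KLF4, CCNG2 and CDKN1B have both serum starvation libraries above both log phase libraries, and ID3, SLC25A6, TPT1, GPX4 and RPL21 have both below. All of these except TPT1 met a naming rule that required groups not to overlap.

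Genes linked to growth factor withdrawal and to FOXO held 15 members with a coding ORF, of which 12 were tested; at an unadjusted p 2 were higher and 0 lower, beside 1.67% and 1.62% of all genes, and the median was 0.11. The 2 genes were CDKN1B and CCNG2. CDKN1B, which encodes p27, a brake on cyclin-dependent kinases, had 32.93 and 26.90 in serum starvation, against 17.89 and 16.69 in log phase (log2 change 0.78, SE 0.34, edgeR adjusted p = 0.9996). CCNG2, the FOXO target cyclin G2, had 59.33 and 63.63 in serum starvation, against 44.73 and 32.02 in log phase (log2 change 0.68, SE 0.28, edgeR adjusted p = 0.9996). Neither gene overlapped between the groups. Without serum starvation A the change of CDKN1B was 0.34, and without serum starvation B 1.13, while that of CCNG2 was 0.42 without log phase B and 0.99 without log phase A. CCNG2 had 20.26 and 21.35 in amino acid starvation and was higher in serum starvation than there by 1.55 (edgeR adjusted p = 0.00101). In monosomes the log2 change was -0.76 (SE 0.63) for CDKN1B and -0.54 (SE 0.43) for CCNG2, and neither was called. The 12 tested genes of the list had a monosome median of -0.25. No coding ORF was listed under the name TXNIP, another gene of this response. The 5 tested genes of ERK feedback had a median of -0.47, with 0 past an unadjusted p of 0.05, and CCND1, the growth factor dependent cyclin D1, had 21.75 and 50.44 in serum starvation, against 25.38 and 81.19 in log phase (log2 change -0.47).

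Cytosolic ribosomal protein genes shared a direction, with a small size. Of 70 members tested, 69 had a log2 change below 0 and both letter pairs pointed down for 57 (81.43%) and up for 0, beside 25.3% and 24.7% of all genes. The median was -0.45 over both subunits, -0.44 over 43 large subunit genes and -0.46 over 27 small subunit genes, against -0.01 for all genes tested. None of the 70 passed after adjustment, 9 were lower at an unadjusted p, beside 1.62% of all genes, and 9 had groups that did not overlap, all lower, beside 4.15% of all genes. Together they held 12.0% and 7.08% of coding footprints in serum starvation A and B, against 14.5% and 10.4% in log phase A and B. Each serum starvation share was below that of its own letter, yet serum starvation A was above log phase B, and an exact permutation test of 2 libraries against 2 cannot go below p = 0.333. The median was -0.26 in the A pair and -0.60 in the B pair. It was -0.78 without serum starvation A and -0.19 without serum starvation B.

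Single ribosomal protein genes show how small the changes were against the spread. RPL21 had 61.20 and 38.54 in serum starvation, against 89.94 and 74.87 in log phase (log2 change -0.74, SE 0.28, edgeR adjusted p = 0.9996). RPS6, the small subunit protein that S6 kinase phosphorylates, had 2234 and 1204 in serum starvation, against 3215 and 1941 in log phase (log2 change -0.60, SE 0.32). RPL21 did not overlap between the groups, and RPS6 did. RPS26 had 674.1 and 291.0 in serum starvation, against 745.3 and 621.1 in log phase (log2 change -0.59, SE 0.29), and its change was -0.13 without serum starvation B and -1.11 without serum starvation A. RPL39 had 281.4 and 44.49 in serum starvation, against 517.1 and 69.46 in log phase (log2 change -0.79, SE 0.33), and its B libraries were several-fold below its A libraries in both conditions. The change of RPL39 was -0.05 without log phase A, -0.47 without serum starvation B, -1.27 without log phase B and -1.29 without serum starvation A. That of RPL21 was -0.45 without serum starvation B. RPSA, at 0.24, was the single ribosomal protein gene above 0. Ribosomal protein genes have processed pseudogenes and near-identical copies such as RPL36A and RPL36AL or RPL39 and RPL39L, so reads of single members may have been split between copies.

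**Figure D3:**
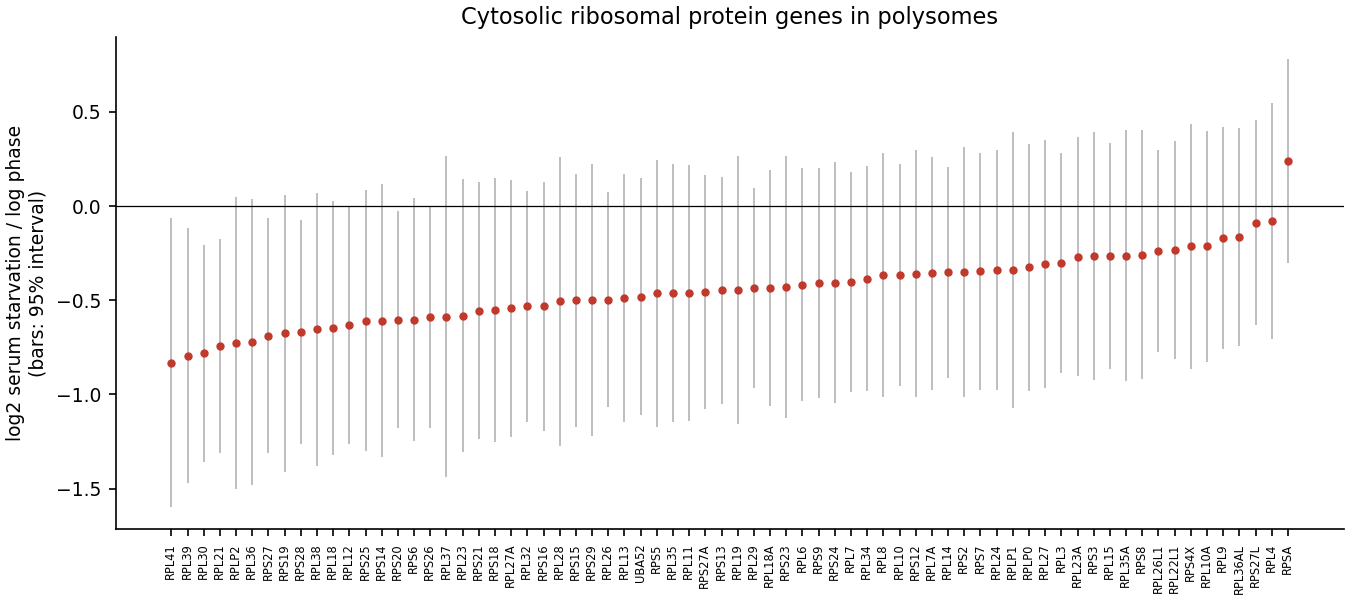
Log2 ratio of serum starvation to log phase polysome footprints for 70 cytosolic ribosomal protein genes, ordered by value, with 95% intervals from the edgeR fit as bars. All but 1 of the points lie below 0, while most of the intervals include 0.

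In monosomes the same 70 genes had a median of 0.08. After adjustment 2 were lower and 0 higher, beside 30 lower and 14 higher of all 4765 genes tested there. The 2 genes were RPL41 (-1.23, edgeR adjusted p = 0.0172) and RPS28 (-1.20, edgeR adjusted p = 0.0184). In amino acid starvation polysomes, set against the same log phase libraries, the median was -2.02, with 64 of 70 lower after adjustment, beside 12.7% of all genes. Serum starvation and amino acid starvation were also compared directly, and 58 of 70 ribosomal protein genes were higher in serum starvation polysomes, beside 7.59% of all genes, and 0 lower. The ribosomal protein share of coding footprints was 4.54% and 3.61% in amino acid starvation A and B, below every serum starvation and log phase polysome library.

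The starts of these genes are shown because a 5'TOP tract is defined by them: a C at the first base of the mRNA and a run of pyrimidines after it. Each line gives 30 bases of the RefSeq table (GRCh38.p14), from 10 before the annotated start to 20 from the start on, with the pyrimidine run that begins at the start in capitals. The positions are chr13:27251548-27251577 (plus strand) for RPL21, chrX:119791611-119791640 (minus) for RPL39, chr1:153990752-153990781 (plus) for RPS27, chr12:56041908-56041937 (plus) for RPS26, chrX:1392094-1392123 (minus) for SLC25A6, chr13:45341164-45341193 (minus) for TPT1 and chr6:89080741-89080770 (plus) for PNRC1.
RPL21: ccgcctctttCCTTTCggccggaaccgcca
RPL39: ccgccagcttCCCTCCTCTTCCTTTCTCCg
RPS27: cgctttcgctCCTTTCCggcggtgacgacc
RPS26: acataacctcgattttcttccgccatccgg
SLC25A6: gctgctccgtCCTTTCggtccaggcggcgg
TPT1: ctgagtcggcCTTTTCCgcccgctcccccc
PNRC1: gtggctatttgttgctgcgccgccaccgcc
RPS26 and PNRC1 have no such run at the annotated start, which for RPS26 says only that these letters are not at that position. Among starts not shown, RPS28 has no such run (log2 change -0.67), and EEF1A1 has a run of 7 bases (log2 change -0.17). A C followed by at least 4 pyrimidines stood at the start of 36 of 58 ribosomal protein genes with an entry (62.07%), of 13 of 15 other 5'TOP genes with an entry (86.67%), of 277 of the 4206 tested genes with an entry (6.59%) and of 4.04% of all 27305 entries.

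Other 5'TOP genes, such as translation elongation factors, were counted apart from the ribosomal proteins. Of 22 tested, both pairs pointed up for 6 (27.27%) and down for 9 (40.91%), beside 24.7% and 25.3% of all genes. Their median was -0.08, with -0.19 in the A pair and 0.01 in the B pair, and 2 were lower at an unadjusted p, beside 1.62% of all genes. Their difference from the ribosomal proteins was not tested. SLC25A6, an ADP/ATP carrier of the inner mitochondrial membrane, had 84.19 and 83.54 in serum starvation, against 169.2 and 141.6 in log phase (log2 change -0.89, SE 0.26, edgeR adjusted p = 0.871). The coding ORF of SLC25A6 with the largest count spans 9 bases, so its value may rest largely on a short stretch of the gene. TPT1, the translationally controlled tumour protein, had 264.1 and 187.0 in serum starvation, against 392.4 and 313.0 in log phase (log2 change -0.66, SE 0.26, edgeR adjusted p = 0.9996). Both genes had groups that did not overlap. The elongation factors lay close to 0: EEF1A1, which delivers aminoacyl-tRNA, had 1134 and 1320 in serum starvation, against 1278 and 1473 in log phase (log2 change -0.17, SE 0.30). EEF2, which moves the ribosome along, had 584.0 and 1014 in serum starvation, against 500.2 and 989.2 in log phase (log2 change 0.14, SE 0.29). The 241 tested genes outside the ribosomal proteins whose entry starts with such a run had a median of -0.03, with both pairs up for 59 and down for 71.

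Medians lay above 0 in several lists of housekeeping genes, of which 5 are described here, with no test of the lists. Of all genes tested, 24.7% pointed up in both pairs and 25.3% down. All 17 tested aminoacyl-tRNA synthetases, which charge tRNAs, had log2 changes above 0 (median 0.28, with 0.09 in the A pair and 0.47 in the B pair), and both pairs pointed up for 14 and down for 0. The 10 glycolytic enzymes were also all above 0 (median 0.44, with 0.28 in the A pair and 0.35 in the B pair), with both pairs up for 7. PGK1, phosphoglycerate kinase, had 89.16 and 394.2 in serum starvation, against 86.07 and 175.5 in log phase (log2 change 0.65, SE 0.29). Most of the difference of PGK1 came from the B pair, and its change was 0.07 without serum starvation B and 0.35 without log phase B. Of 28 hnRNP and SR splicing factors, both pairs pointed up for 15 and down for 0 (median 0.23, with 0.06 in the A pair and 0.38 in the B pair), and of 16 nucleotide synthesis enzymes for 11 and 0 (median 0.31, with 0.19 in the A pair and 0.43 in the B pair). Of 36 proteasome genes both pairs pointed up for 18 and down for 3 (median 0.16, with 0.10 in the A pair and 0.18 in the B pair). No member of these 5 lists passed after adjustment. In the direct comparison, 11 of the 17 synthetases, 3 of the 10 glycolytic enzymes, 10 of the 28 splicing factors, 7 of the 16 nucleotide synthesis enzymes and 10 of the 36 proteasome genes were lower in serum starvation than in amino acid starvation, beside 6.63% of all genes. Further lists had medians above 0 too, among them CCT chaperonin and prefoldin (0.37 over 13 genes), nucleolar ribosome biogenesis factors (0.27 over 28) and tubulins (0.26 over 9). Others lay near or below 0, among them endoplasmic reticulum chaperones (0.03 over 18 genes) and mitochondrial ribosomal proteins (-0.13 over 66).

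ORF length moved with these directions. Length was read from a single coding ORF per gene, whichever held most footprints. It can be far shorter than the whole coding sequence, as for SLC25A6 (9 bases). Across 5323 genes the change in serum starvation correlated with this length at rho = 0.23 (0.21 in the A pair and 0.13 in the B pair). For amino acid starvation, against the same log phase libraries, rho was 0.32. Cytosolic ribosomal proteins are short and synthetases long, and the part of length in the list medians was not tested. Mitochondrial ribosomal proteins, another set of short proteins, had a median of -0.13 over 66 genes. Both pairs pointed up for 6 of them and down for 26, beside 24.7% and 25.3% of all genes. Nuclear subunits of the respiratory chain had a median of -0.12 over 65 genes, with both pairs up for 14 and down for 23.

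**Figure D4:**
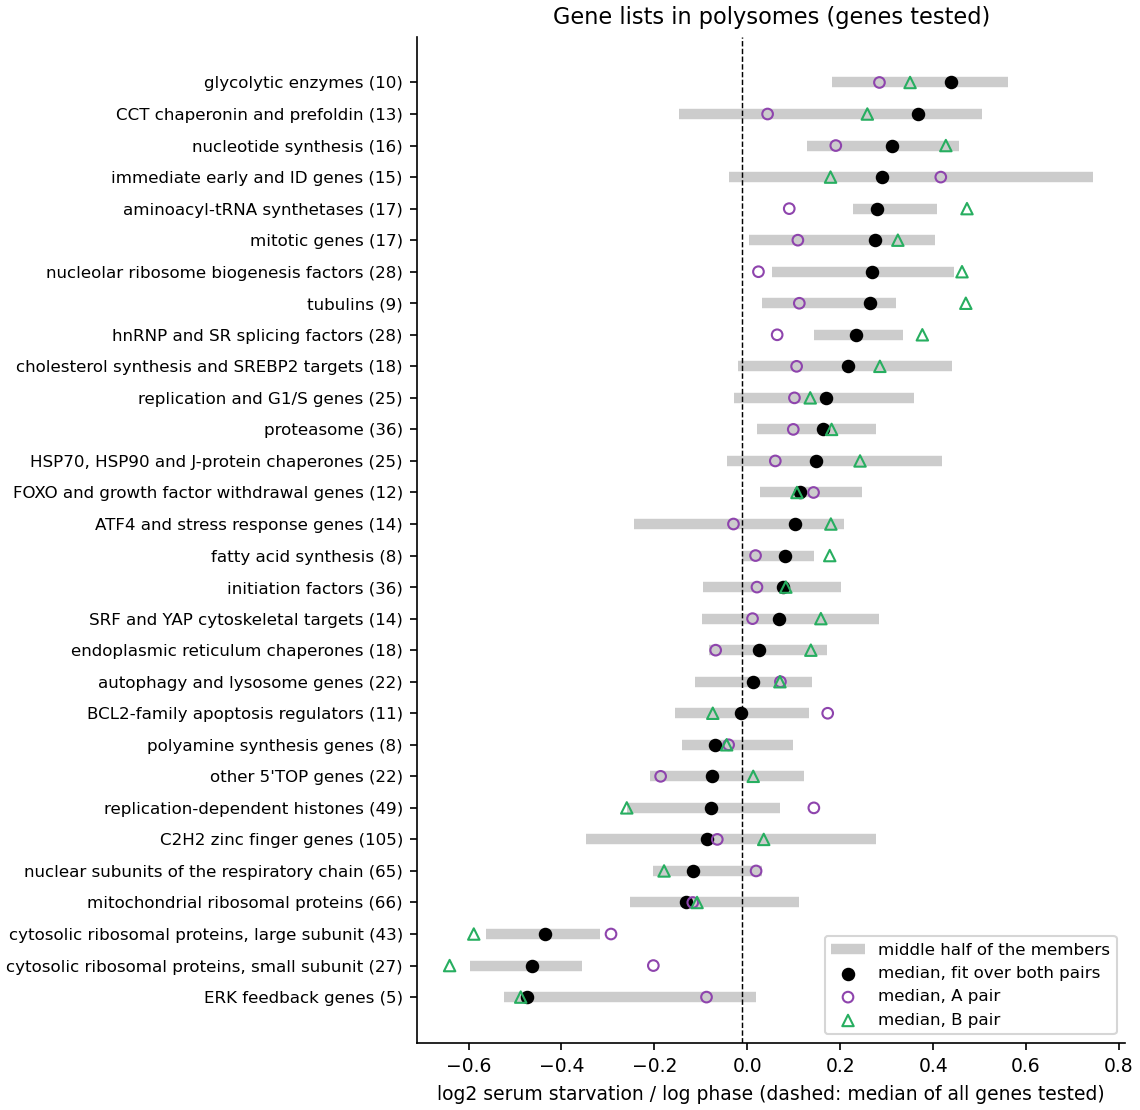
Log2 ratio of serum starvation to log phase polysome footprints for 30 gene lists, with the number of genes tested in brackets. Black points are medians of the edgeR fit, open circles and triangles are medians of the A and B pairs, grey bars span the middle 50% of members, and the dashed line is the median of all genes tested (-0.01); both ribosomal protein lists lie left of it in both pairs.

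Replication-dependent histones, the S phase histone genes, had a median of -0.08 over 49 genes, with medians of 0.14 in the A pair and -0.26 in the B pair. Both pairs pointed up for 6 and down for 19, beside 24.7% and 25.3% of all genes. H4C11, a histone H4 gene, had 796.2 and 603.2 in serum starvation, against 1285 and 1035 in log phase (log2 change -0.73, SE 0.28, edgeR adjusted p = 0.9996). H4C11 did not overlap between the groups, but histone H4 genes encode the same protein and their reads cannot be assigned with certainty. Of 18 genes of cholesterol synthesis and SREBP2, which serum lipids hold down, both pairs pointed up for 9 and down for 2, beside the same shares. Their median was 0.22, and 1 was higher at an unadjusted p, beside 1.67% of all genes. HMGCS1, the HMG-CoA synthase of that pathway, had 82.94 and 191.1 in serum starvation, against 70.35 and 120.0 in log phase (log2 change 0.46, SE 0.27). In monosomes HMGCS1 rose by 1.43 (edgeR adjusted p = 0.00892). It was the only 1 of 17 list members called higher there, with 0 lower, beside 14 higher and 30 lower of all 4765 genes. The monosome median of the list was -0.098.

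Genes of the integrated stress response did not move as a list, with a median of 0.10. Of 14 tested both pairs pointed up for 4 and down for 4, beside 24.7% and 25.3% of all genes. ATF4, its central transcription factor, had 73.93 and 33.36 in serum starvation, against 146.3 and 45.11 in log phase (log2 change -0.74, SE 0.28, edgeR adjusted p = 0.9996). Each serum starvation value of ATF4 was below that of its own letter, yet serum starvation A was above log phase B. It had 137.7 and 67.79 in amino acid starvation and was lower in serum starvation than there by a log2 change of -0.96 (edgeR adjusted p = 0.0174). SHMT2, the mitochondrial serine hydroxymethyltransferase and an ATF4 target, had 57.78 and 196.6 in serum starvation, against 39.89 and 99.23 in log phase (log2 change 0.77, SE 0.27). The autophagy receptor SQSTM1 had 35.10 and 86.13 in serum starvation, against 21.52 and 68.56 in log phase (log2 change 0.50, SE 0.28), and ornithine decarboxylase, ODC1, had 589.3 and 516.8 in serum starvation, against 625.2 and 575.5 in log phase (log2 change -0.12, SE 0.28).

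The remaining named genes did not pass either. TRMO, a tRNA methyltransferase, had 24.23 and 22.50 in serum starvation, against 11.36 and 7.22 in log phase (log2 change 1.31, SE 0.35, edgeR adjusted p = 0.645). GPX4, the selenoprotein that reduces lipid peroxides, had 72.38 and 37.76 in serum starvation, against 125.0 and 77.58 in log phase (log2 change -0.90, SE 0.29, edgeR adjusted p = 0.9996). In monosomes GPX4 fell by 1.21 on the log2 scale (edgeR adjusted p = 0.0366). TIFA, an adaptor of innate immune signalling, had 16.46 and 24.05 in serum starvation, against 34.09 and 50.07 in log phase (log2 change -1.05, SE 0.30, edgeR adjusted p = 0.676). TRMO, TIFA and GPX4 did not overlap between the groups, which was a condition for naming them. Of the others, GTF2B, OAT and GAS1 had log2 changes of 0.65 to 0.79, and TMEM230, LGALSL, SAC3D1 and SPINDOC of -1.01 to -0.83. With 1 library left out, the change was 0.29 to 1.23 for GTF2B, 0.14 to 1.31 for OAT and 0.12 to 1.11 for GAS1. The coding ORF of TMEM230 with the largest count spans 21 bases.

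In the monosome fraction 44 of 4765 genes differed between serum starvation and log phase (0.923%), 14 higher and 30 lower. The change in polysomes and that in monosomes, taken from different libraries of the same conditions, correlated across genes at r = 0.14 and rho = 0.20. The difference between the polysome change and the monosome change passed an interaction test for 13 genes (0.273%), and PNRC1, FTL, ID3 and the ribosomal protein genes were not among them.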

How the data were processed

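Footprints of 17 to 34 bases were sequenced from 12 HEK293 libraries. The authors deposited 1 table of ORFs with an expected count per library, an estimated count that need not be whole, and a caller p-value per ORF. The title of the table names PRICE, an ORF caller. Bowtie 1.0 and hg38 are listed in the submitters' processing notes, with no role. The caller's settings are not given in the sources used here.

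Each of 149028 ORFs was read once: codons shared by ORFs were counted for 1 ORF only, which left 124829, of which 7031 of type CDS, Trunc or Variant were added up by gene (6375 genes) and the sums rounded. The table gives Ensembl IDs; 5994 genes were named by their position in the RefSeq gene table, the others (262 within no protein-coding gene, 117 within more than 1 and 2 on the other strand) kept their ID.

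Genes with at least 10 counts in enough libraries (edgeR's filterByExpr, total at least 15) were scaled by TMM and tested with edgeR 4.0.16 in R 4.3.3 (glmQLFit and glmQLFTest) over the 6 polysome libraries, with group and letter as terms and Benjamini-Hochberg adjustment over all genes tested. Monosomes and the interaction were tested over all 12 libraries, where 4765 genes passed the filter. Serum starvation is over log phase throughout, and SE is the log2 change over the square root of F. DESeq2 1.42.0 and limma 3.58.1 were alternatives. The column letters were taken to pair the libraries. B-minus-A deviations correlated at 0.16 to 0.87 over every pair of groups, and at 0.77 to 0.87 among polysome groups. The labels give replicate numbers and no letters, so the pairing is not stated by them. Pair changes used a prior count of 2.

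Named genes were those past the test, then the smallest p among genes with groups that do not overlap, the same direction in both pairs and at least 50 footprints, up to 10 per direction, then up to 4 per list by p and a fixed set. The lists and the comparison were chosen with earlier results of these data known.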

Additional observations from a re-analysis of the deposited data

Results flagged for a closer look

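The serum starvation change differed between polysomes and monosomes, by edgeR's interaction test, for 13 genes. The difference, polysome minus monosome on the log2 scale, was 4.903 for EML6, 3.731 for COMMD2, 3.619 for ZNF622, 3.945 for ULK2, 2.112 for C1orf122, 2.361 for PPTC7, 6.181 for LRP1, 5.74 for CACNA1G, 1.868 for CDK2AP1 and 4.597 for SPEG. It was 2.332 for a locus shared by ENSG00000267281 and ENSG00000170653, -2.346 for ENSG00000120137 and -3.924 for CCDC120. Single monosome libraries held most of the footprints of some of these genes. COMMD2 had 14 and 28 footprints in serum starvation monosomes A and B, against 3211 and 65 in log phase monosomes A and B. ZNF622 had 2 and 18 in serum starvation monosomes, against 962 and 20 in log phase monosomes. CCDC120 had 0 and 139 in serum starvation monosomes, against 1 and 6 in log phase monosomes. Monosome libraries held 119947 and 303642 coding footprints in serum starvation, against 289228 and 346200 in log phase. The part of these single libraries in the test was not separated further, beyond leaving each out in turn.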

How the results depend on the processing

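The count of 1 gene changed in serum starvation polysomes was 0 without the replicate block (3 at an unadjusted p), where the spread between libraries (biological coefficient of variation) was 0.49 against 0.19 with it. It was 0 with all 12 libraries and a block shared by fractions, with limma-voom, with scaling to coding footprints alone and with CDS-type ORFs alone, where 821 genes were tested and PNRC1 was not among them. It was 2 with DESeq2 and with ORFs of caller p under 1e-4 (PNRC1 and ID3 in each), 3 with all 12 libraries and a block per fraction (PNRC1, ID3 and SNAI2), and 9 with the 4 compared libraries alone (PNRC1, SNAI2, BTG1, FTL, MYC and FTH1 higher, ID3, H4C9 and CDKN2A lower). Leaving out 1 library gave 0 to 5 genes. In the fits that leave 1 library in a group, that library is assumed to vary like the others. Without serum starvation B, IRF2BP2 had a log2 change of -3.9, and without serum starvation A 2.95. Its coding ORF with the largest count spans 24 bases, and the cause was not tested. The 13 genes of the interaction test became 0 with no replicate block and 2 to 14 with 1 library left out. The 757 genes that differed between serum and amino acid starvation became 0 with no replicate block and 85 to 1363 with 1 library left out. The ribosomal protein median stayed below 0 in all 19 alternatives, at -0.7833 to -0.1908 with 1 library left out. The ribosomal protein share differed by -2.89 percentage points, serum starvation minus log phase, and by -3.673 with CDS-type ORFs alone. Of 2507 values of 143 named genes under the alternatives, 2460 kept their direction and side of the threshold, 25 turned sign below it (19 genes), 8 lost a call, 13 gained one and 1 reversed. With 1 library left out, among genes that did not pass, the log2 change was -1.31 to -0.57 for GPX4, -1.01 to -0.39 for ATF4, 0.24 to 0.83 for SQSTM1, 0.28 to 0.64 for HMGCS1 and -0.10 to 0.35 for EEF2. Of 582 list medians, 98 differed by more than the spread between the pairs.

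Scaling is relative, so a change of all genes together would not be seen. With 2 libraries a group, the 95% interval of the median gene reached 0.59 on the log2 scale to either side. Footprints are not molecules, since PCR copies were not marked.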
